A study of Homo sapiens with 6 samples.

Results

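A list of 43 genes of the G1/S transition and of DNA replication was followed by gene symbol through 3 human ovarian cancer cell lines. Named probe sets on the array stood for 34 of the 43, and all 34 had a mean log2 signal of at least 5 over the 6 arrays, the minimum set for testing, out of 8620 genes tested. The remaining 9 genes (ATAD2, BLM, CHAF1B, GMNN, HELLS, POLA1, POLD3, PRIM1 and RFC2) were not analysed here. The choice used no measured value, although it was made with earlier results of these arrays known.

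DNA replication is prepared in G1, when the origin recognition complex, CDC6 and CDT1 load the ring of MCM subunits onto origins. Cyclin-dependent kinases free the E2F factors from the retinoblastoma protein, and E2F then drives the genes of S phase, among them the MCM subunits, nucleotide enzymes and fork factors. CDC45 and the GINS complex turn the loaded ring into a moving helicase, behind which the polymerases work with the sliding clamp PCNA. Transcripts of these genes peak around the G1/S boundary, so their levels in a culture follow how many of its cells are cycling.

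The data are 6 arrays, 1 for each line and transfection. ES-2, OVCAR-3 and SKOV-3 cells had each been transfected with miR-135a-3p, one arm of the miR-135a hairpin, or with miR-blank, the control. All are established lines, labelled as ovarian cancer, and the dose, the harvest time and the kind of transfected material are not given in the sources used here. Each line gave 1 pair of arrays. For the transfections the lines are the replicates (n = 3), and p-values measure how far the difference varies between lines. Comparisons of lines rest on that same spread, with 2 arrays per line that differ in transfection, and their p-values do not measure a spread between separate cultures. A difference is given as miR-135a-3p minus miR-blank on the log2 scale, and a level is a normalised log2 signal, which is compared only within a gene. The check of the transfection was the hairpin gene MIR135A1, which read 12.57 for ES-2, 12.20 for OVCAR-3 and 11.58 for SKOV-3 after miR-135a-3p, against 1.75, 2.26 and 2.07 after miR-blank in the same lines. The other hairpins of the family stayed below the minimum for testing, MIR135A2 at 1.88 for ES-2, 2.34 for OVCAR-3 and 1.81 for SKOV-3 after miR-135a-3p, against 1.81, 1.75 and 1.62 after miR-blank in the same lines, and MIR135B at 2.85 for ES-2, 3.19 for OVCAR-3 and 3.56 for SKOV-3 after miR-135a-3p, against 2.88, 3.11 and 2.95 after miR-blank in the same lines.

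The array medians lay between 4.16 and 4.23, and the lowest signal of any of the 34 genes on any array was 5.78, so none lay near the bottom of the scale. The deposited table held no detection calls. Of 6 epithelial markers 5 were named, and they did not all stand high. The keratin KRT18 averaged 10.42 for ES-2, 10.20 for OVCAR-3 and 9.66 for SKOV-3, KRT8 6.35 for ES-2, 5.64 for OVCAR-3 and 5.76 for SKOV-3, KRT7 6.56 for ES-2, 4.34 for OVCAR-3 and 5.63 for SKOV-3 and KRT19 4.98 for ES-2, 4.95 for OVCAR-3 and 4.94 for SKOV-3, while EPCAM averaged 4.01 for ES-2, 4.13 for OVCAR-3 and 3.95 for SKOV-3, below the array medians. PAX8, a marker of the Mullerian lineage, averaged 4.49 for ES-2, 4.22 for OVCAR-3 and 8.46 for SKOV-3, so it was near the array medians in ES-2 and OVCAR-3. The other named genes of that list differed less. WT1 averaged 5.70 for ES-2, 5.77 for OVCAR-3 and 6.64 for SKOV-3, and MSLN 5.36, 5.32 and 6.32 in the same order. SOX17 averaged 4.96, 4.97 and 5.44, and EMX2 3.81, 3.82 and 4.03, again in that order. The mesenchymal genes VIM (10.79 for ES-2, 5.31 for OVCAR-3 and 9.86 for SKOV-3) and FN1 (11.27 for ES-2, 5.52 for OVCAR-3 and 4.90 for SKOV-3) differed widely between lines. ZEB1, of the same list, differed less, at 7.36 for ES-2, 6.86 for OVCAR-3 and 7.02 for SKOV-3. The endothelial markers PECAM1 and VWF and the monocyte marker CD14 had line means between 3.44 and 4.54. The other named genes of the leukocyte list stood higher. CD68, a lysosomal gene, averaged 10.27 for ES-2, 7.49 for OVCAR-3 and 9.08 for SKOV-3, and TYROBP 5.41 for ES-2, 5.19 for OVCAR-3 and 5.52 for SKOV-3.

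Some markers also had differing signals between the transfections, with 1 pair of arrays per line and no test. In SKOV-3, 3 of the 5 named epithelial markers were past 1.5-fold in either direction. So were 3 of the 5 of the ovarian and Mullerian lineage and 2 of the 3 leukocyte markers. Of all genes tested, 15.4% were past 1.5-fold in SKOV-3, against 3.46% in ES-2 and 3.92% in OVCAR-3. The SKOV-3 differences were 2.24 for CD68, a lysosomal gene, 0.70 for TYROBP, 1.41 for MSLN, 1.0 for WT1, −0.68 for PAX8, −1.53 for KRT7, 0.62 for KRT8 and 0.59 for KRT18. In OVCAR-3 they were 2.22 for FN1, 1.03 for KRT7 and 0.72 for KRT8, and in ES-2 −0.80 for KRT8 and 0.63 for PAX8. The log2 of the summed leukocyte signal ranged from 7.72 to 10.29 over the miR-135a-3p arrays, against 7.95 to 10.46 over the miR-blank arrays, and its defining marker PTPRC was not analysed here. The part of these markers in the results was not tested.

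The transfected arm is shown with its seed, bases 2 to 8, in capitals, beside the other arm of the same hairpin, from RefSeq (GRCh38.p14, minus strand of chromosome 3). The seeds differ, and 3′ untranslated regions were not used here, so target sites were not sought.
hsa-miR-135a-3p: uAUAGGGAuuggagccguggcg
hsa-miR-135a-5p: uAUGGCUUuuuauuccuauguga

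Promoters give a feature that the list did not use. E2F words were searched on both strands in the 250 bases before the start of each gene, as TTTCCCGC, TTTCGCGC, TTTGCCGC or TTTGGCGC, and overlapping matches were counted separately. RefSeq (GRCh38.p14) gave a promoter for 35 of the 43 genes, and 15 of these, 42.9%, held at least 1 such word. The same held for 12 of 75 promoters of other G1/S and replication genes (16%), for 319 of 6856 promoters of genes tested (4.65%) and for 761 of 27303 promoters in all (2.79%). The CCAAT box, on either strand, was in 24 of the 35 (68.6%), against 35.3% of promoters of genes tested. A match is a run of letters and does not show that a factor binds there. Only exact words were sought, so a promoter without a match may still hold a site with other letters.

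**Figure D1:**
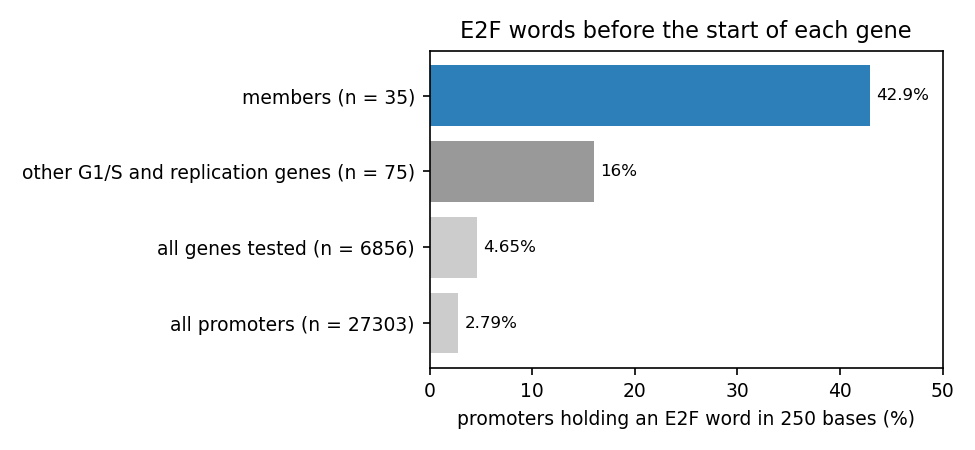
Share of promoters that hold at least 1 E2F word in the 250 bases before the gene start, in percent, with the number of promoters in brackets. The bar of the G1/S and replication genes stands at 42.9%, above 16% for other genes of the pathway and 2.79% for all promoters.

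The 250 bases before the start are shown for 4 genes that recur in the results, with the E2F words in capitals. MCM7 and MCM3 had lower signal in each line with miR-135a-3p, and CDT1 and UHRF1 were among the genes with the highest SKOV-3 differences. All 4 hold a word, and so does UBR7, also past 1.5-fold in SKOV-3, with a word that starts at −12. DSCC1 and MCM4, of the same groups, had no promoter among those searched. TIPIN and RRM2, also past 1.5-fold in SKOV-3, and NASP, also lower in each line, hold none. The words start at −187 and −9 before MCM7 (chr7:100101398-100101647 on the minus strand), at −174 before MCM3 (chr6:52284743-52284992 on the minus strand), at −35 before CDT1 (chr16:88803539-88803788 on the plus strand) and at −14 before UHRF1 (chr19:4909251-4909500 on the plus strand).
MCM7: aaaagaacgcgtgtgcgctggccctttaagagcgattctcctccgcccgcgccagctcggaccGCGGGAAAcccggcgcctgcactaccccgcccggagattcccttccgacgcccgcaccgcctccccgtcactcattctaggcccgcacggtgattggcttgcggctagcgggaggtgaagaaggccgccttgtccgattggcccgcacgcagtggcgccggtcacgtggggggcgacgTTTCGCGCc
MCM3: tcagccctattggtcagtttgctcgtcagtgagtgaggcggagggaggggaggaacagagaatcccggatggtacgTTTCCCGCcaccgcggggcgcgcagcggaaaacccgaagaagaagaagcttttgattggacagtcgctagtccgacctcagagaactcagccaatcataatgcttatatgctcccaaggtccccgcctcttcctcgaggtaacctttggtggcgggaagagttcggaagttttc
CDT1: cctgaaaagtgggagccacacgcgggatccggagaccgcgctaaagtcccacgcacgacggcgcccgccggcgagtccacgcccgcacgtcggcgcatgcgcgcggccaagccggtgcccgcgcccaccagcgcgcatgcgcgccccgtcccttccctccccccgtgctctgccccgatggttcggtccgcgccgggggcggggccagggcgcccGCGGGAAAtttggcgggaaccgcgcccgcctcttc
UHRF1: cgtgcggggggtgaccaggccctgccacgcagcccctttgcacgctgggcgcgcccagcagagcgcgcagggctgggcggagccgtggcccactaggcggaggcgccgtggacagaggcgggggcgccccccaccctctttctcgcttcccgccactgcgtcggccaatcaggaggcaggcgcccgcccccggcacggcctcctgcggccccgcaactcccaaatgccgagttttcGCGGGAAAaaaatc

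Over the 3 lines together, none of the 34 genes was shown to change with miR-135a-3p. limma, with the line as a block, called 0 of 34 at a Benjamini-Hochberg adjusted p under 0.05, where it called 0.0116% of all genes tested, which is MIR135A1 alone. At an unadjusted p under 0.05 there were also 0 of 34, against 2.91% of all genes. Without variance moderation there were 2, MCM7 and MCM3. The share of all genes was not computed for that fit, so these 2 have no background beside them. The lowest adjusted p of a member was 0.999. The median of the mean differences was 0.07, against −0.0097 over all genes, with 23 of 34 means above 0 (47.5% of all genes) and 11 below (52.5%). The 95% intervals reached from a half-width of 0.31 to one of 0.55, with bounds no lower than −0.62, or 1.54-fold lower, and no higher than 1.01, or 2.02-fold higher, which was the bound of DSCC1. In bulk RNA, a change in the share of cells in S phase and a change in RNA per cell cannot be told apart.

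**Figure D2:**
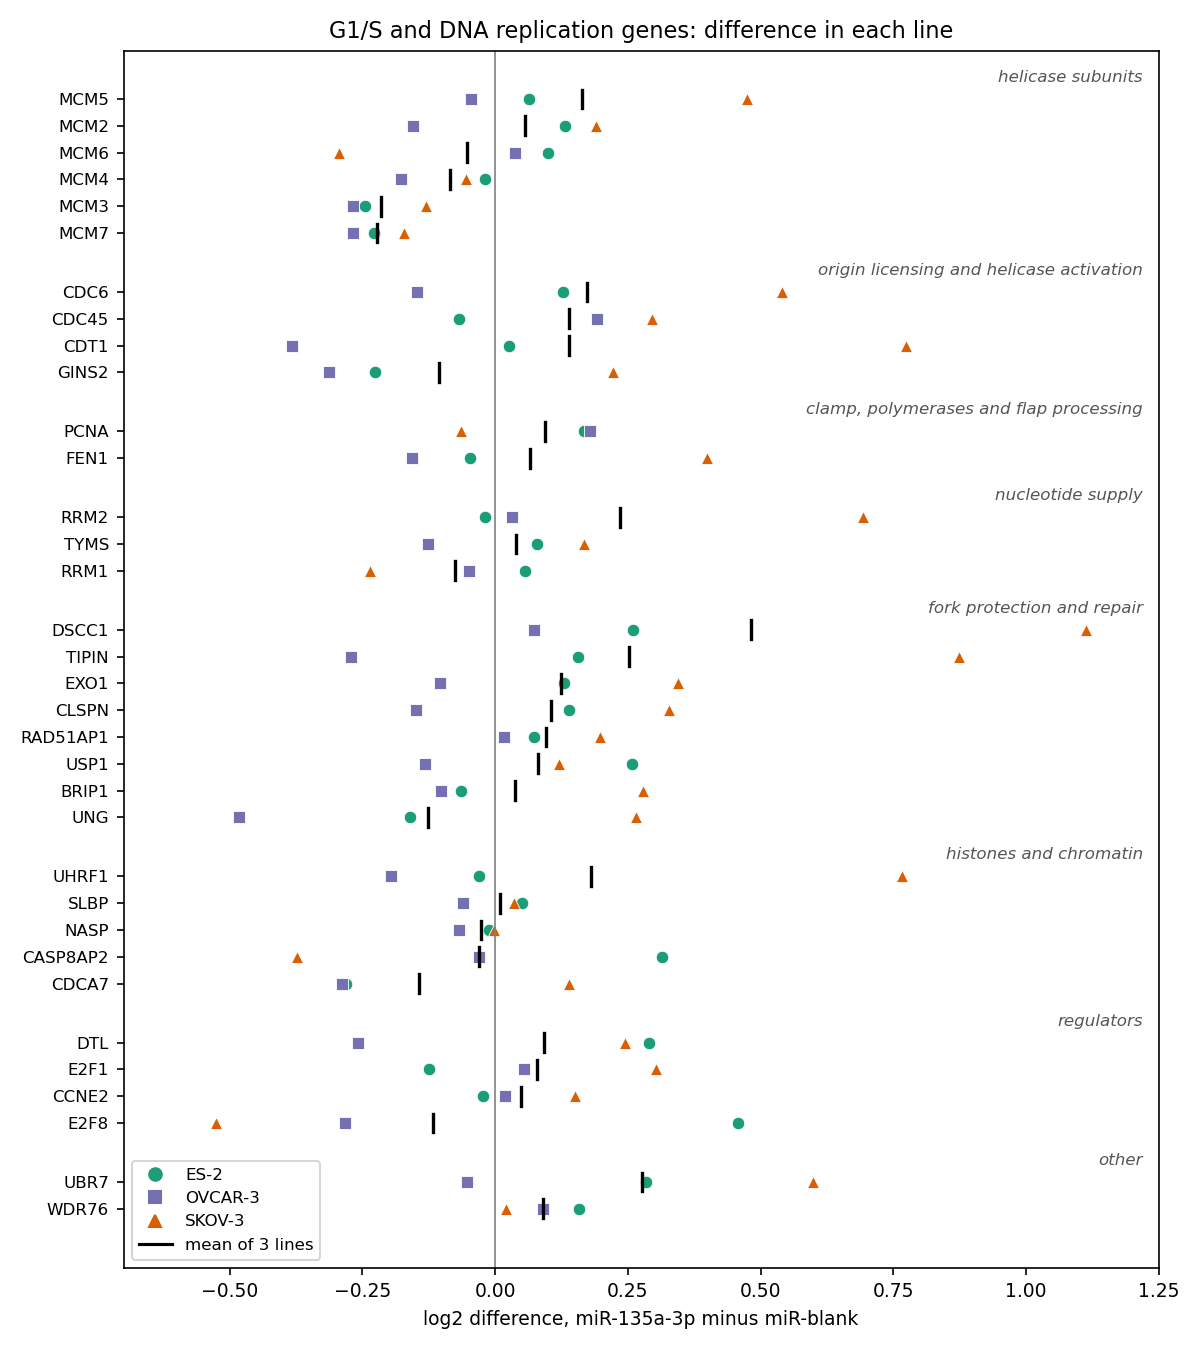
Log2 difference, miR-135a-3p minus miR-blank, of each of the 34 genes in ES-2 (circles), OVCAR-3 (squares) and SKOV-3 (triangles), grouped by role, with a bar at the mean of the 3 lines. The SKOV-3 points reach from −0.53 to 1.11, while those of ES-2 stay between −0.28 and 0.46 and those of OVCAR-3 between −0.48 and 0.19.

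The lines parted in direction. In SKOV-3, 25 of 34 genes had higher signal after miR-135a-3p (52.2% of all genes tested) and 9 lower (47.8%), with a median difference of 0.21 against 0.019 over all genes. In OVCAR-3, 25 of 34 had lower signal (59.4% of all genes) and 9 higher (40.5%), with a median of −0.11 against −0.053. ES-2 had 20 higher and 14 lower (48.8% and 51.1% of all genes), with a median of 0.060 against −0.0057. The SKOV-3 difference was the highest of the 3 lines for 24 genes (43.3% of all genes), and the OVCAR-3 difference was the lowest for 24 (38% of all genes). Among the 2012 genes with a mean of at least 8, these shares were 50.3% and 44.9%.

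The members are bright, 24 of 34 having a mean of at least 8 (23.3% of all genes), and bright genes as a whole leaned the same way. Of those 2012 genes, 49.3% were higher in ES-2, 57.7% were higher in SKOV-3 and 66.4% lower in OVCAR-3, with medians of 0.070 and −0.075, against 0.23 and −0.13 for the 24 members among them. The OVCAR-3 count moved with scaling, as did all genes. It was 9 of 34 higher as deposited (40.5% of all genes), 14 after a further quantile normalization (47.3%), 13 after cyclic loess (46.2%), 12 after centring on the median of all genes (50%) and 6 with equal array medians (34.8%). The SKOV-3 count stayed between 24 and 26 under these settings. Each line has 1 array per transfection, so these differences have no replicate check and the difference between lines was not tested.

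**Figure D3:**
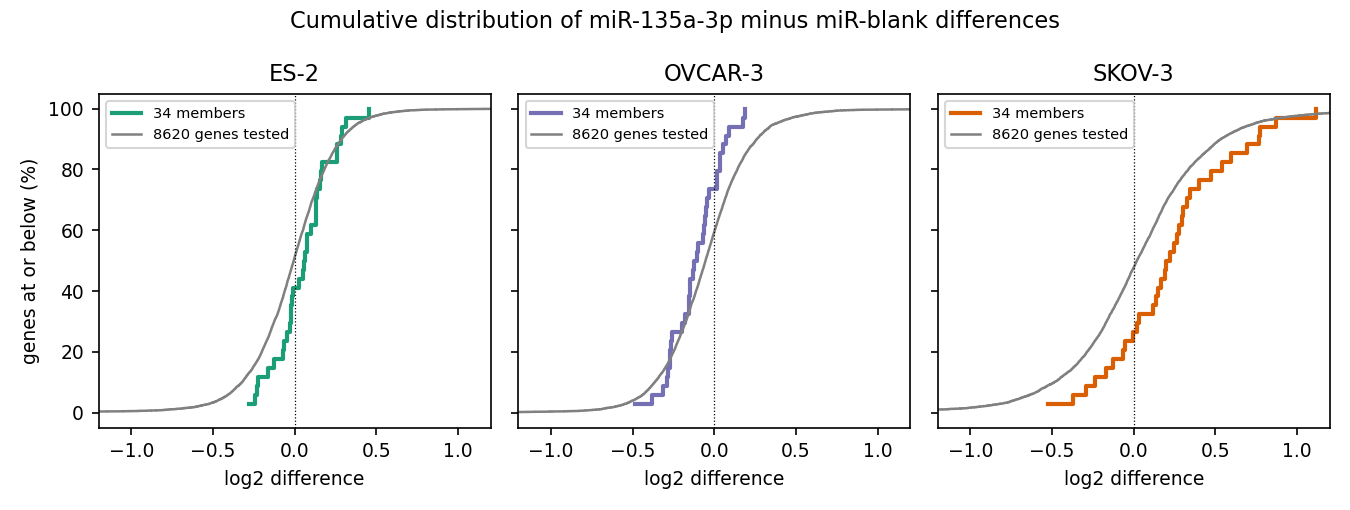
Percentage of genes at or below each log2 difference, miR-135a-3p minus miR-blank, for the 34 genes (coloured) and all 8620 genes tested (grey) in each line. The coloured curve lies right of the grey one over most of the SKOV-3 panel and left of it in the upper part of the OVCAR-3 panel.

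A difference of 1.5-fold or more, up or down, was seen for 0 of 34 genes in ES-2 and 0 in OVCAR-3 (3.46% and 3.92% of all genes) and for 6 in SKOV-3 (15.4% of all genes). All 6 were higher, which 8.35% of all genes were, and 0 were at least 1.5-fold lower (7.03% of all genes). These shares of all genes were 13.6% for either direction and 8.55% for higher among the 2012 bright genes.

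The highest of them was DSCC1, a subunit of the alternative clamp loader that serves sister chromatid cohesion (probe set 17080595). DSCC1 read 6.73 for ES-2, 7.03 for OVCAR-3 and 7.69 for SKOV-3 after miR-135a-3p, against 6.47, 6.96 and 6.58 after miR-blank in the same lines. Its difference was above 0 in each line, at 0.26 for ES-2, 0.073 for OVCAR-3 and 1.11 for SKOV-3, and was 2.16-fold in SKOV-3. The mean of 0.48 ± 0.55 (SD, n = 3) had a 95% interval of −0.048 to 1.01 and was 0.17 without SKOV-3.

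TIPIN, which with TIMELESS keeps the helicase and polymerases together at the fork (probe set 16810933), read 7.38 for ES-2, 7.24 for OVCAR-3 and 7.30 for SKOV-3 after miR-135a-3p, against 7.22, 7.51 and 6.43 after miR-blank in the same lines. The SKOV-3 miR-blank array was the low one here, the other 5 lying within a narrow range. The differences were 0.16 for ES-2, −0.27 for OVCAR-3 and 0.87 for SKOV-3, and the mean of 0.25 ± 0.58 (SD, n = 3) turned to −0.058 without SKOV-3.

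CDT1, the loader of the MCM ring that is destroyed once S phase starts (probe set 16821869), read 8.59 for ES-2, 8.34 for OVCAR-3 and 8.71 for SKOV-3 after miR-135a-3p, against 8.57, 8.72 and 7.94 after miR-blank in the same lines. It differed by −0.38 in OVCAR-3 and by 0.77, 1.71-fold, in SKOV-3, with 0.025 in ES-2. The mean was 0.14 ± 0.59 (SD, n = 3), and −0.18 without SKOV-3.

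UHRF1, which brings the maintenance DNA methyltransferase to newly copied DNA (probe set 16857258), followed the same order of lines. Its signal was 8.94 for ES-2, 8.47 for OVCAR-3 and 8.72 for SKOV-3 after miR-135a-3p, against 8.97, 8.66 and 7.96 after miR-blank in the same lines. Differences were −0.03 for ES-2, −0.20 for OVCAR-3 and 0.77 for SKOV-3, and the mean of 0.18 ± 0.51 (SD, n = 3) became −0.11 without SKOV-3.

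RRM2, the regulated subunit of ribonucleotide reductase (probe set 16877019), had 9.87 for ES-2, 9.99 for OVCAR-3 and 9.82 for SKOV-3 after miR-135a-3p, against 9.89, 9.96 and 9.13 after miR-blank in the same lines. The SKOV-3 miR-blank signal lay below the other 5. The mean difference was 0.24 ± 0.40 (SD, n = 3), and 0.007 without SKOV-3.

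UBR7, a chromatin-bound ubiquitin ligase (probe set 16787679), read 8.60 for ES-2, 8.06 for OVCAR-3 and 8.55 for SKOV-3 after miR-135a-3p, against 8.31, 8.11 and 7.95 after miR-blank in the same lines. Differences were 0.28 for ES-2, −0.054 for OVCAR-3 and 0.60 for SKOV-3, with a mean of 0.28 ± 0.33 (SD, n = 3) and 0.12 without SKOV-3. In each of these 6 genes the 3 miR-135a-3p signals and the 3 miR-blank signals overlapped. No overlap was seen for 0 of 34 genes, against 2.13% of all genes.

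**Figure D4:**
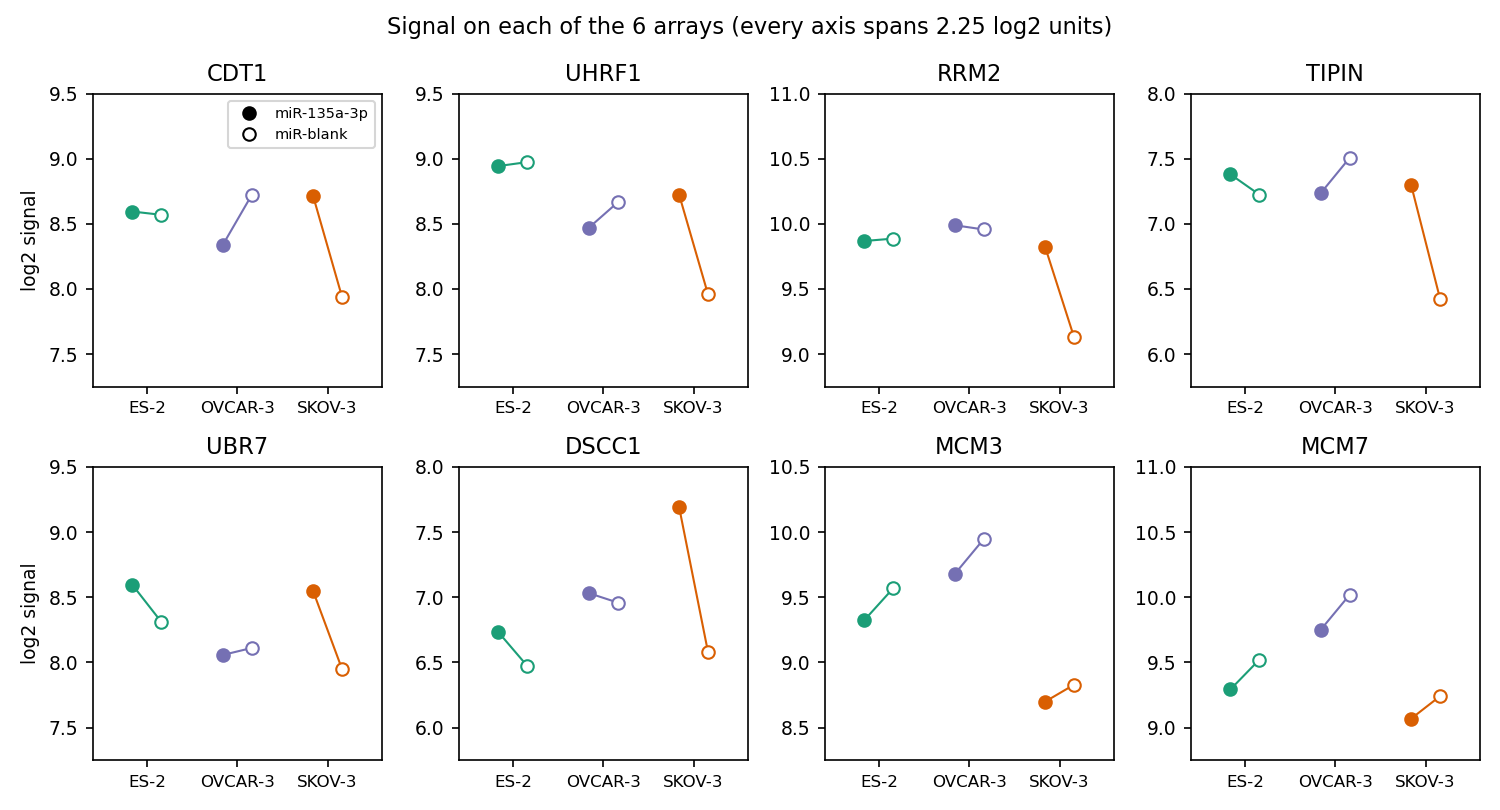
Log2 signal on each array for 8 genes, with miR-135a-3p (filled) left of miR-blank (open) in each line. CDT1, UHRF1, RRM2, TIPIN, UBR7 and DSCC1 have the open circle well below the filled one in SKOV-3, and MCM3 and MCM7 have the filled circle below the open one in every line.

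The arrays stood apart in the same sense. Of the 34 genes, 14 had their lowest signal of the 6 arrays on the SKOV-3 miR-blank array, 41.2% against 16.7% of all genes and 21.9% of the 2012 bright genes. The other arrays held the lowest signal of 1 to 7 of the genes (14.3% to 18.7% of all genes each). Among the 3 miR-blank arrays, SKOV-3 was the lowest for 20 genes (31.3% of all genes) and OVCAR-3 the highest for 22 (37.4% of all genes). Among the 3 miR-135a-3p arrays, SKOV-3 was the lowest for 12 (28.9% of all genes) and OVCAR-3 the highest for 13 (34% of all genes). The median signal of the 34 genes in SKOV-3 was 8.67 after miR-135a-3p and 8.19 after miR-blank, in OVCAR-3 it was 8.45 after miR-135a-3p and 8.62 after miR-blank, and in ES-2 it was 8.54 after miR-135a-3p and 8.33 after miR-blank. Whether this array or the transfection moves these values was not tested.

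Among the helicase subunits, MCM2 to MCM7, all 6 were tested. Of these, 5 were lower in OVCAR-3 (59.4% of all genes, 66.4% of the bright ones) and 4 in SKOV-3 (47.8% of all genes, 42.3% of the bright ones). MCM7 (probe set 17060412) read 9.29 for ES-2, 9.75 for OVCAR-3 and 9.07 for SKOV-3 after miR-135a-3p, against 9.52, 10.02 and 9.24 after miR-blank in the same lines. The miR-135a-3p signal was the lower one in each line, with differences of −0.23 for ES-2, −0.27 for OVCAR-3 and −0.17 for SKOV-3. Its mean of −0.22 ± 0.048 (SD, n = 3) was the lowest of the 34, with a 95% interval of −0.53 to 0.088. The interval uses a variance moderated over all genes (SE 0.13), so it is wider than this SD alone would give.

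MCM3 (probe set 17020019) ran beside it, at 9.32 for ES-2, 9.68 for OVCAR-3 and 8.70 for SKOV-3 after miR-135a-3p, against 9.57, 9.95 and 8.83 after miR-blank in the same lines. Differences were −0.25 for ES-2, −0.27 for OVCAR-3 and −0.13 for SKOV-3, with a mean of −0.21 ± 0.074 (SD, n = 3) and an interval of −0.53 to 0.10. Leaving out a line kept the means of MCM7 and MCM3 between −0.26 and −0.19. MCM4 was the other subunit lower in each line, at −0.02 for ES-2, −0.18 for OVCAR-3 and −0.055 for SKOV-3. The subunits did not run together in SKOV-3, where MCM5 had 0.47 and MCM2 0.19, while MCM6 had −0.29, one of the 3 lowest there. MCM6 read 8.87 for ES-2, 9.44 for OVCAR-3 and 8.93 for SKOV-3 after miR-135a-3p, against 8.77, 9.40 and 9.23 after miR-blank in the same lines. In all, 4 of 34 genes were lower in every line (13.4% of all genes), namely MCM7, MCM3, MCM4 and the histone chaperone NASP, and 3 were higher in every line (9.54% of all genes), namely DSCC1, RAD51AP1 and WDR76. WDR76, a WD repeat protein bound to chromatin, read 9.04 for ES-2, 9.71 for OVCAR-3 and 8.94 for SKOV-3 after miR-135a-3p, against 8.88, 9.62 and 8.91 after miR-blank in the same lines. After a further quantile normalization or cyclic loess 2 genes were lower in every line.

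The origin licensing and helicase activating factors had their highest differences in SKOV-3, where all 4 tested were higher (52.2% of all genes, 57.7% of the bright ones). CDC6, the ATPase that brings CDT1 and the MCM ring to the origin, read 8.03 for ES-2, 8.43 for OVCAR-3 and 8.64 for SKOV-3 after miR-135a-3p, against 7.90, 8.57 and 8.10 after miR-blank in the same lines. CDC45 and GINS2 are parts of the active helicase. CDC45 read 7.64 for ES-2, 8.69 for OVCAR-3 and 8.16 for SKOV-3 after miR-135a-3p, against 7.71, 8.49 and 7.87 after miR-blank in the same lines, and GINS2 read 7.93 for ES-2, 8.01 for OVCAR-3 and 8.0 for SKOV-3 after miR-135a-3p, against 8.16, 8.33 and 7.77 after miR-blank in the same lines. CDC45 had −0.069 for ES-2, 0.19 for OVCAR-3 and 0.29 for SKOV-3, and GINS2 −0.23 for ES-2, −0.31 for OVCAR-3 and 0.22 for SKOV-3. The median of the 4 was −0.022 for ES-2, −0.23 for OVCAR-3 and 0.42 for SKOV-3.

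Of the clamp and polymerase group, 2 genes were named. PCNA, the sliding clamp, read 10.07 for ES-2, 10.60 for OVCAR-3 and 9.87 for SKOV-3 after miR-135a-3p, against 9.90, 10.42 and 9.94 after miR-blank in the same lines. It differed by 0.17 for ES-2, 0.18 for OVCAR-3 and −0.064 for SKOV-3. FEN1, the nuclease that trims Okazaki fragments, differed by −0.047 for ES-2, −0.16 for OVCAR-3 and 0.40 for SKOV-3, so these partners had opposite signs in each line. In the nucleotide supply group RRM1, the partner of RRM2 in ribonucleotide reductase, read 9.58 for ES-2, 9.45 for OVCAR-3 and 9.05 for SKOV-3 after miR-135a-3p, against 9.53, 9.50 and 9.28 after miR-blank in the same lines. The subunits had opposite signs in each line, RRM2 with −0.018 for ES-2, 0.033 for OVCAR-3 and 0.69 for SKOV-3 and RRM1 with 0.056 for ES-2, −0.049 for OVCAR-3 and −0.24 for SKOV-3. TYMS, which makes thymidylate, had differences of 0.078 for ES-2, −0.13 for OVCAR-3 and 0.17 for SKOV-3.

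The fork protection and repair group was higher in SKOV-3 for all 8 tested genes (52.2% of all genes, 57.7% of the bright ones), with a median of 0.30. It was lower in OVCAR-3 for 6 of 8 (59.4% of all genes, 66.4% of the bright ones), with a median of −0.12. UNG, the glycosylase that removes uracil from DNA, had the lowest OVCAR-3 difference of the 34. UNG read 7.69 for ES-2, 7.36 for OVCAR-3 and 8.62 for SKOV-3 after miR-135a-3p, against 7.85, 7.84 and 8.35 after miR-blank in the same lines. Its mean of −0.13 ± 0.38 (SD, n = 3) was 0.052 without OVCAR-3. The exonuclease EXO1 had 0.13 for ES-2, −0.10 for OVCAR-3 and 0.34 for SKOV-3 and the checkpoint mediator CLSPN 0.14 for ES-2, −0.15 for OVCAR-3 and 0.33 for SKOV-3, where a second, dim probe set of CLSPN had −0.0027, 0.014 and 0.27. The helicase BRIP1 had −0.064 for ES-2, −0.10 for OVCAR-3 and 0.28 for SKOV-3, RAD51AP1 0.073 for ES-2, 0.017 for OVCAR-3 and 0.20 for SKOV-3, and the deubiquitinase USP1 0.26 for ES-2, −0.13 for OVCAR-3 and 0.12 for SKOV-3.

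The histone and chromatin group had no median far from that of all genes in OVCAR-3, at −0.067 against −0.053, or −0.075 for genes with a mean of at least 8. All 5 tested genes were lower there, as were 59.4% of all genes and 66.4% of the bright ones. CDCA7, the partner of the remodeller HELLS, read 6.95 for ES-2, 7.02 for OVCAR-3 and 7.14 for SKOV-3 after miR-135a-3p, against 7.23, 7.31 and 7.01 after miR-blank in the same lines. Its ES-2 difference of −0.28 was the lowest of that line, and its mean was −0.14 ± 0.24 (SD, n = 3), moving to −0.28 without SKOV-3. CASP8AP2, which takes part in histone gene expression, read 7.25 for ES-2, 7.54 for OVCAR-3 and 7.43 for SKOV-3 after miR-135a-3p, against 6.94, 7.57 and 7.80 after miR-blank in the same lines. It had 0.31 for ES-2, −0.031 for OVCAR-3 and −0.37 for SKOV-3, with the SKOV-3 value among the 3 lowest there and the ES-2 value among the 3 highest. NASP had −0.012 for ES-2, −0.067 for OVCAR-3 and −0.0021 for SKOV-3 and SLBP, which binds the stem-loop of histone mRNAs, 0.052 for ES-2, −0.06 for OVCAR-3 and 0.035 for SKOV-3.

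Of the regulators, E2F8, a repressor of the E2F family, had opposite signs in different lines. It read 7.75 for ES-2, 7.97 for OVCAR-3 and 6.96 for SKOV-3 after miR-135a-3p, against 7.29, 8.26 and 7.48 after miR-blank in the same lines. The ES-2 difference of 0.46 was the highest of that line and the SKOV-3 difference of −0.53 the lowest of that one. E2F1, an activator of the family, had −0.12 for ES-2, 0.055 for OVCAR-3 and 0.30 for SKOV-3, and CCNE2, cyclin E2, −0.023 for ES-2, 0.018 for OVCAR-3 and 0.15 for SKOV-3. DTL, the substrate receptor of the ligase that removes CDT1 in S phase, differed by 0.29 for ES-2, −0.26 for OVCAR-3 and 0.24 for SKOV-3. Its signals were 10.23 for ES-2, 9.81 for OVCAR-3 and 9.83 for SKOV-3 after miR-135a-3p, against 9.94, 10.07 and 9.59 after miR-blank in the same lines.

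The differences were also set out by whether the promoter held an E2F word. The 13 tested genes with a word had median differences of 0.025 for ES-2, −0.20 for OVCAR-3 and 0.17 for SKOV-3. The 15 tested genes with a promoter in RefSeq but no word had 0.056, −0.10 and 0.28 in the same lines. No test was made of this split, and genes without a word may hold sites with other letters.

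Among other genes of the pathway, 47 of 89 listed were named and 44 tested, and limma called 0 of 44, with 0 at an unadjusted p under 0.05. The median difference was 0.0020 for ES-2, −0.12 for OVCAR-3 and 0.14 for SKOV-3. SKOV-3 had 31 of 44 higher, 70.5%, against 52.2% of all genes and 57.7% of those with a mean of at least 8. OVCAR-3 had 32 of 44 lower, 72.7%, against 59.4% of all genes and 66.4% of those bright ones. In all lines 5 were higher and 6 lower (9.54% and 13.4% of all genes). CCND1, cyclin D1, differed by 0.039 for ES-2, −0.23 for OVCAR-3 and 1.06 for SKOV-3, the activators E2F2 and E2F3 by −0.30 for ES-2, −0.79 for OVCAR-3 and 0.011 for SKOV-3 and by −0.087 for ES-2, −0.55 for OVCAR-3 and −0.23 for SKOV-3.

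Of the origin genes, the helicase part GINS3 had 0.23 for ES-2, −0.34 for OVCAR-3 and 0.86 for SKOV-3, MCMBP, which binds MCM subunits, −0.16 for ES-2, −0.21 for OVCAR-3 and −0.26 for SKOV-3, and DBF4, the activator of the kinase CDC7, −0.046 for ES-2, −0.02 for OVCAR-3 and −0.43 for SKOV-3. DCK, which salvages deoxynucleosides, had 0.18 for ES-2, 0.24 for OVCAR-3 and 0.25 for SKOV-3, CTPS1, a CTP synthase, 0.064 for ES-2, −0.016 for OVCAR-3 and 0.58 for SKOV-3, and SAMHD1, which degrades dNTPs, 0.0029 for ES-2, −0.25 for OVCAR-3 and −0.22 for SKOV-3. The scaffold CUL4A of the ligase that DTL serves had −0.47 for ES-2, −0.21 for OVCAR-3 and 0.079 for SKOV-3, and the histone chaperones ASF1A and ASF1B had 0.075 for ES-2, −0.012 for OVCAR-3 and −0.32 for SKOV-3 and 0.031 for ES-2, 0.15 for OVCAR-3 and 0.018 for SKOV-3. The nuclease DNA2 (−0.33 for ES-2, −0.037 for OVCAR-3 and 0.15 for SKOV-3), the topoisomerase TOP1 (0.011 for ES-2, −0.25 for OVCAR-3 and 0.039 for SKOV-3) and TIMELESS (−0.12 for ES-2, −0.16 for OVCAR-3 and 0.15 for SKOV-3) had the largest mean differences among the 4 tested genes of the polymerase list.

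Between the lines themselves, SLBP was higher in ES-2, and MCM3 was higher in OVCAR-3 cells than SKOV-3 cells. limma, with the transfection as a block, called 2 of 34 genes between any of the lines, requiring 2-fold and an adjusted p below 0.05, namely SLBP and MCM3, where it called 25.2% of all genes tested and 20% of those with a mean of at least 8. Of the 44 other genes of the pathway, 11 were called. Each line entered with 2 arrays that also differ in transfection, and separate cultures are not stated for them.

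SLBP was higher in ES-2 than in both other lines. SLBP read 11.22 for ES-2, 9.89 for OVCAR-3 and 9.47 for SKOV-3 after miR-135a-3p, against 11.17, 9.95 and 9.43 after miR-blank in the same lines, so that both ES-2 signals lay above the other 4. The difference was 1.28 ± 0.16 (SE, n = 2 arrays per line, limma adjusted p 0.00182) for ES-2 minus OVCAR-3, or 2.42-fold. It was 1.74 ± 0.16 (SE, n = 2 arrays per line, limma adjusted p 0.000956) for ES-2 minus SKOV-3, or 3.34-fold. Without variance moderation both calls were lost, at a limma adjusted p of 0.0656 against OVCAR-3 and 0.0845 against SKOV-3.

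MCM3 averaged 9.45 for ES-2, 9.81 for OVCAR-3 and 8.76 for SKOV-3, and OVCAR-3 minus SKOV-3 was 1.05 ± 0.16 (SE, n = 2 arrays per line, limma adjusted p 0.00511), or 2.07-fold. Both OVCAR-3 signals lay above both SKOV-3 signals. The call was lost without the OVCAR-3 miR-135a-3p array (limma adjusted p 0.0599) and without the OVCAR-3 miR-blank array (limma adjusted p 0.0706), and without variance moderation (limma adjusted p 0.0901).

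Each comparison of lines thus called 1 member. The share of all genes called was 16.5% for ES-2 minus OVCAR-3, 12.1% for ES-2 minus SKOV-3 and 14.6% for OVCAR-3 minus SKOV-3, with 8.65%, 4.85% and 5.6% called higher in the line named first. OVCAR-3 had the highest mean level of the lines for 17 genes (36.7% of all genes) and SKOV-3 the lowest for 19 (29.4%). At an adjusted p under 0.05 and any fold, 4 genes differed between ES-2 and OVCAR-3 (29.2% of all genes), 3 between ES-2 and SKOV-3 (23% of all genes) and 7 between OVCAR-3 and SKOV-3 (25.6% of all genes). Of the 7, 6 were higher in OVCAR-3 (11% of all genes), namely MCM3, RAD51AP1 (0.85, limma adjusted p 0.0111), WDR76 (0.74, 0.0177), MCM7 (0.73, 0.018), PCNA (0.61, 0.0403) and E2F8 (0.89, 0.0465), and UNG was lower (−0.88, 0.028). CDC45 (−0.92, limma adjusted p 0.00979), WDR76 (−0.71, 0.019) and MCM6 (−0.60, 0.0472) were lower in ES-2 cells than OVCAR-3 cells, beside the higher SLBP (13.9% of all genes were higher). RAD51AP1 (0.78, limma adjusted p 0.0183) and MCM3 (0.68, 0.0267) were higher in ES-2 cells than SKOV-3 cells, as was SLBP (9.34% of all genes).

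**Figure D5:**
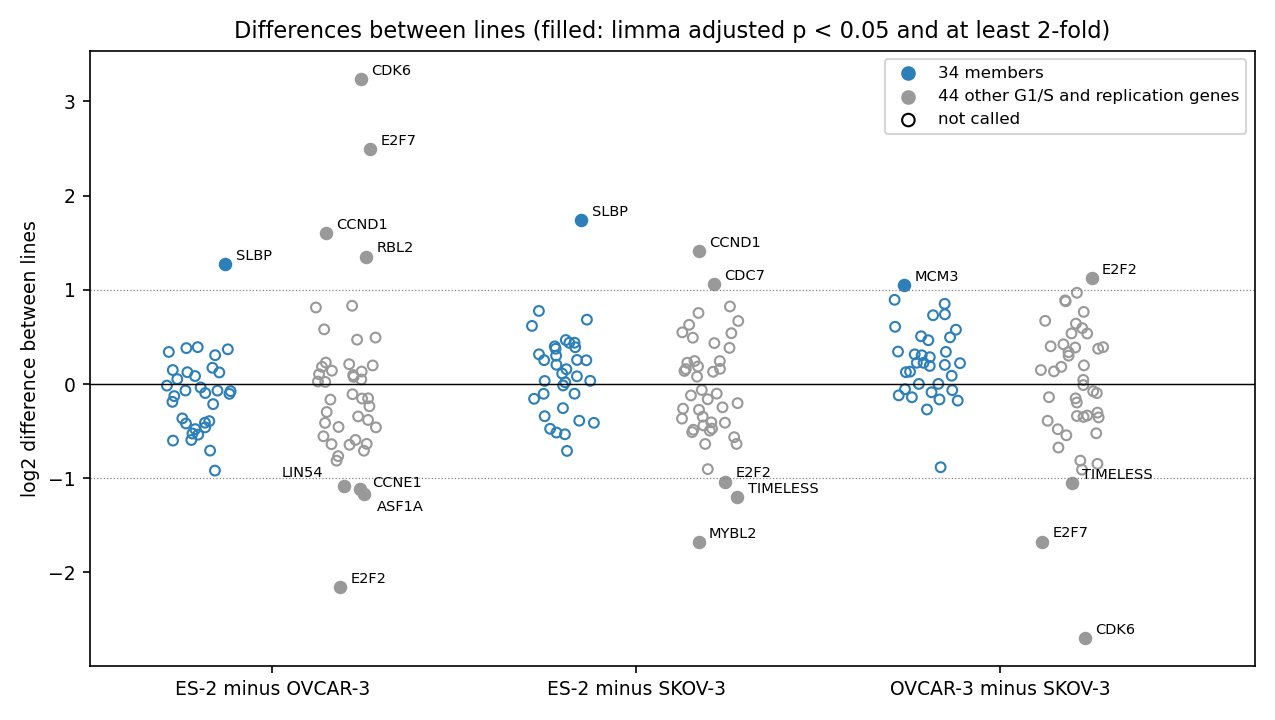
Log2 difference between lines for the 34 genes (blue) and the 44 other genes of the pathway (grey), with called genes filled and named, and dotted lines at 2-fold. Blue points stay within 2-fold except SLBP and MCM3, while 11 grey genes are called.

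Among the 11 other genes called were several upstream of replication. CDK6, a partner of the D cyclins, averaged 8.32 for ES-2, 5.08 for OVCAR-3 and 7.77 for SKOV-3, with ES-2 minus OVCAR-3 at 3.24 (limma adjusted p 0.000503) and OVCAR-3 minus SKOV-3 at −2.69 (limma adjusted p 0.0014). Cyclin D1, CCND1, averaged 9.88 for ES-2, 8.27 for OVCAR-3 and 8.47 for SKOV-3 and was higher in ES-2 cells than OVCAR-3 cells (limma adjusted p 0.0109) and than SKOV-3 cells (0.0227). Cyclin E1, CCNE1, averaged 7.11 for ES-2, 8.23 for OVCAR-3 and 7.58 for SKOV-3 and was lower in ES-2 cells than OVCAR-3 cells (limma adjusted p 0.0178). The E2F members ran in opposite orders, E2F2 at 5.92 for ES-2, 8.08 for OVCAR-3 and 6.96 for SKOV-3 and the repressor E2F7 at 8.97 for ES-2, 6.48 for OVCAR-3 and 8.15 for SKOV-3, with ES-2 minus OVCAR-3 at −2.16 (limma adjusted p 0.000867) and 2.50 (0.00144).

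MYBL2, which drives late cell cycle genes, averaged 8.85 for ES-2, 9.62 for OVCAR-3 and 10.53 for SKOV-3, with ES-2 minus SKOV-3 at −1.67 (limma adjusted p 0.00109). TIMELESS, the partner of TIPIN, averaged 7.87 for ES-2, 8.02 for OVCAR-3 and 9.07 for SKOV-3 and was lower in ES-2 cells than SKOV-3 cells (limma adjusted p 0.00477) and lower in OVCAR-3 cells than SKOV-3 cells (0.00637). The pocket protein RBL2 was higher in ES-2 cells than OVCAR-3 cells (1.35, limma adjusted p 0.00378), and LIN54 (−1.08, 0.00509) and ASF1A (−1.17, 0.00409) were lower. The origin kinase CDC7 was higher in ES-2 cells than SKOV-3 cells (1.06, limma adjusted p 0.0139).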

How the data were processed

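The deposited values are log2 signals of 53617 probe sets on 6 arrays. Per the submitters' processing notes, the deposited values involved Expression Console 1.4, Transcriptome Analysis Console 3.0 and RMA, with no role given. RMA equalises the distributions of the arrays, so a shift of most genes one way would be removed. The log2 scale was read from the values. The array number limits the precision.

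Of the probe sets, 16098 had 1 gene symbol in the platform annotation, updated by Entrez identifier to RefSeq GRCh38.p14, and stood for 14884 genes. The probe set with the highest mean was kept, and 8620 genes with a mean of at least 5 were tested with limma 3.58.1 in R 4.3.3 (lmFit, eBayes, two-sided, Benjamini-Hochberg adjusted). Transfections were compared with the line as a block, since both arrays of a line share its cells. Deviations from the transfection means had correlations of 0.90 for the ES-2 pair, 0.91 for OVCAR-3 and 0.76 for SKOV-3. Lines were compared with transfection in the model, requiring 2-fold and an adjusted p below 0.05. Within a line, sizes and counts past 1.5-fold were given. The fit was checked on simulated data.

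Members, lists and naming rule were chosen with earlier results of these data known. All 6 signals were given for genes called, the 4 highest and lowest mean differences, and the 3 highest and lowest of each line. Pathway genes were named where called or among the 3 largest of a list, and others after their values were seen. Alternatives were other filters, normalizations, variance models, blocks, probe set means, and lines or arrays left out. Centring on all genes and the comparison with bright genes were added after seeing the data.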

Additional observations from a re-analysis of the deposited data

Results flagged for a closer look

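The 3 patterns given here ran in opposite directions in different lines, each with 1 pair of arrays per line, so that the difference between lines was not tested. The minimum size of the opposite differences was chosen after the values were seen. CDT1 had a log2 difference of 0.77 in SKOV-3 and −0.38 in OVCAR-3. E2F8 differed by 0.46 in ES-2, against −0.53 in SKOV-3. The median over the 34 members was 0.21 in SKOV-3 and −0.11 in OVCAR-3, against 0.019 and −0.053 over all genes tested. Genes with a mean of at least 8 leaned the same way, with medians of 0.070 in SKOV-3 and −0.075 in OVCAR-3. After centring on the median of all genes the OVCAR-3 median of the members was −0.062.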

How the results depend on the processing

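No member was called between the transfections under any alternative, including the fit without the replicate block (0 called), nor was any of the 44 other genes of the pathway. The median mean difference of 0.071 ran from 0.062 to 0.091 over filters and normalizations. With a line left out it ran from −0.0047 (without SKOV-3) to 0.11 (without OVCAR-3). These moves were smaller than the SD of the 3 line medians, 0.16. That SD is larger than the median itself, so it could not show a loss of the difference. Members higher in every line numbered 3, against 6 after a further quantile normalization and 5 after cyclic loess. Members lower in every line numbered 4, against 2 after each of these normalizations. With 1 line left out, 5 to 15 were higher and 4 to 10 lower in both remaining lines, fewer lines having to share a sign. In OVCAR-3, 14 members were higher after quantile normalization (47.3% of all genes) and 6 with equal array medians (34.8%), against 9 (40.5%). Without a replicate, the mean of UNG turned to 0.052 (without OVCAR-3) and that of TIPIN to −0.058 (without SKOV-3), with ranges of −0.32 to 0.052 and of −0.058 to 0.51. Between lines, the calls of SLBP and MCM3 fell to 0 without variance moderation, where 0.0464% of all genes were called, against 25.2%. Of the other 44 genes of the pathway, 0 were called there in each comparison of lines. With an array left out, calls ranged from 1 to 2 for ES-2 minus OVCAR-3, from 1 to 3 for ES-2 minus SKOV-3, from 0 to 2 for OVCAR-3 minus SKOV-3, and from 1 to 4 between any lines. The other genes of the pathway called then ranged from 4 to 8, from 2 to 7 and from 2 to 8. The cause of these moves was not tested. With 1 array left in a line, it is assumed to vary like those of the other lines. Signal over background could not be judged, as the table held no detection calls.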
